A study of Mus with 12 samples.

Results

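B lineage identity genes are 9 genes that mark cells committed to the B lymphocyte lineage: Cd79a, Cd79b, Ms4a1, Pax5, Ebf1, Bank1, Blnk, Cd22 and Fcrla. They were chosen by name, and all 9 were found among the 55491 entries of the expression table and passed the filter on low values (1 FPKM or more in 2 or more libraries, where FPKM counts fragments per kilobase of transcript relative to the size of the library). The table holds bulk RNA-seq of primary CD8 T cells that were labelled naive when taken from the spleen of C57BL/6 mice and were then activated for 20 h. The paper describes cells isolated in this way as mostly, but not fully, pure. The groups were RARα-KO+RA, RARα-KO, BATF-KO+RA, BATF-KO, WT+RA and WT, with 2 libraries each. RARα-KO cells lacked the retinoic acid receptor RARα through Cre recombination of a floxed Rara gene, BATF-KO cells lacked the AP-1 family factor BATF, and WT cells were unaltered. All 12 libraries shared a medium whose serum (10%) had been charcoal-stripped, IL-2 at 100 U/ml, plate-bound anti-CD3 at 1 µg/ml and anti-CD28 at 2 µg/ml, and +RA marks all-trans retinoic acid (RA) added at 15 nM. The Cre was under the distal Lck promoter, which is active in T cells, so the model deletes Rara in T lineage cells and not in other spleen cells. The work mostly used age-matched young adult mice, of both sexes in initial studies and mainly male later. The exact age and number of the mice behind these libraries could not be taken from the sources used here. Nor could whether replicates of a group came from separate animals, and each p-value measures the spread between these libraries only.

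B lymphocytes recognise antigen through a membrane immunoglobulin held by a signalling pair, CD79A and CD79B, whose tails recruit the kinases LYN, SYK and BTK. The lineage is set up by the transcription factors EBF1 and PAX5, which switch on the receptor pair, its adaptors and the surface molecules that tune its signal, and which hold back the programmes of other lineages. CD8 T cells signal through CD3 and the T cell receptor instead, and these 9 genes are used to recognise B cells in spleen samples.

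The labels were checked first. Batf was at 4.05 to 4.90 FPKM in the 4 BATF-KO libraries, against 19.10 to 34.05 FPKM in the other 8. Rara was at 11.09 to 17.86 FPKM in all 12 libraries, which does not check the deletion because gene-level values also count reads outside the deleted part. Cre RNA was listed at 680.90 FPKM with RA and 824.25 FPKM without RA in replicate 1 of the RARα-KO cells and at 86.67 and 79.29 FPKM in replicate 2, against at most 0.13 FPKM in the BATF-KO and WT libraries, so the WT libraries were not Cre-expressing controls. The T cell label held in every library, with Cd8a at 233.92 to 259.06 FPKM in RARα-KO cells, against 260.06 to 355.98 FPKM in the rest. Between 12085 and 12487 genes reached 1 FPKM per library, and relative depth spanned 0.959 to 1.404 of that of WT replicate 1.

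All 9 B lineage identity genes were higher in each of the 4 RARα-KO libraries than in any of the other 8. Their summed level was 378.33 and 475.17 FPKM in RARα-KO+RA cells and 378.19 and 413.31 FPKM in RARα-KO cells. It was 112.43 and 79.01 FPKM in BATF-KO+RA cells, 105.60 and 76.00 FPKM in BATF-KO cells, 89.20 and 47.65 FPKM in WT+RA cells, and 95.24 and 42.46 FPKM in WT cells. The sum never exceeded 0.0637% of all FPKM in a library, and the 12 CD8 T cell markers summed to between 3349.8 and 5350.4 FPKM. In a bulk library, fewer cells of a type and less RNA per cell cannot be told apart. Whether the RNA of the 9 genes came from the CD8 T cells or from B cells left among them was not tested.

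The receptor signalling pair was the most abundant of the set. Cd79a (ENSMUSG00000003379, chr7:24897497-24901858, GRCm38) encodes the chain also called Igα. It had 124.96 and 137.20 FPKM in RARα-KO+RA cells, 116.42 and 118.42 FPKM in RARα-KO cells, 27.77 and 19.92 FPKM in BATF-KO+RA cells, 27.11 and 19.46 FPKM in BATF-KO cells, 26.48 and 10.59 FPKM in WT+RA cells, and 26.90 and 10.15 FPKM in WT cells. The lowest RARα-KO library stood 4.19-fold above the highest of the other 8, whereas the BATF-KO and WT libraries overlapped. Cd79b (ENSMUSG00000040592, chr11:106311341-106314562) encodes its partner Igβ. It had 101.28 and 128.98 FPKM in RARα-KO+RA cells, 99.58 and 107.75 FPKM in RARα-KO cells, 46.95 and 33.82 FPKM in BATF-KO+RA cells, 38.42 and 28.62 FPKM in BATF-KO cells, 31.90 and 19.51 FPKM in WT+RA cells, and 29.85 and 15.75 FPKM in WT cells. Its gap between the lowest RARα-KO library and the highest other library was 2.12-fold, the smallest of the 9 genes.

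The surface molecules followed. Ms4a1 (ENSMUSG00000024673, chr19:11249679-11266149) encodes CD20, a membrane protein of mature B cells that is the target of rituximab in humans. It was at 21.70 and 27.97 FPKM in RARα-KO+RA cells, 23.93 and 29.70 FPKM in RARα-KO cells, 8.51 and 3.49 FPKM in BATF-KO+RA cells, 8.50 and 4.53 FPKM in BATF-KO cells, 4.69 and 2.13 FPKM in WT+RA cells, and 6.59 and 2.47 FPKM in WT cells. All 4 RARα-KO libraries were high, and the wide spacing of replicates left BATF-KO and WT overlapping. Cd22 (ENSMUSG00000030577, chr7:30865404-30880342) encodes an inhibitory coreceptor that binds sialic acid and dampens the receptor signal. It was at 49.50 and 84.59 FPKM in RARα-KO+RA cells, 55.00 and 69.25 FPKM in RARα-KO cells, 12.31 and 9.29 FPKM in BATF-KO+RA cells, 14.75 and 10.17 FPKM in BATF-KO cells, 10.09 and 6.45 FPKM in WT+RA cells, and 14.16 and 6.17 FPKM in WT cells. Its RARα-KO libraries varied more than those of Cd79a, yet the lowest was still 3.36-fold above the highest of the rest.

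The lineage-defining factors were expressed at lower levels. Pax5 (ENSMUSG00000014030, chr4:44524748-44710694), which fixes B lineage commitment, had 12.97 and 22.43 FPKM in RARα-KO+RA cells, 13.32 and 18.63 FPKM in RARα-KO cells, 4.20 and 2.31 FPKM in BATF-KO+RA cells, 3.45 and 2.10 FPKM in BATF-KO cells, 2.04 and 1.60 FPKM in WT+RA cells, and 3.17 and 1.60 FPKM in WT cells. Ebf1 (ENSMUSG00000057098, chr11:44618100-45008096), which acts upstream of Pax5 in B cell specification, had 4.28 and 4.95 FPKM in RARα-KO+RA cells, 4.62 and 4.07 FPKM in RARα-KO cells, 1.16 and 0.55 FPKM in BATF-KO+RA cells, 0.91 and 0.57 FPKM in BATF-KO cells, 0.70 and 0.52 FPKM in WT+RA cells, and 0.74 and 0.38 FPKM in WT cells. Ebf1 was the least abundant of the 9 genes in every library and lay under 1 FPKM in 7 of the 8 BATF-KO and WT libraries. It therefore passed the filter on low values only through the RARα-KO libraries, where it was high. Both factors separated RARα-KO from all other libraries, by 3.09-fold for Pax5 and 3.51-fold for Ebf1.

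Among the genes for intracellular proteins, Bank1 and Blnk had the widest gaps of the 9. Bank1 (ENSMUSG00000037922, chr3:136053363-136326141) encodes a scaffold that links the B cell receptor to downstream kinases. It was at 19.25 and 22.51 FPKM in RARα-KO+RA cells, 19.38 and 21.43 FPKM in RARα-KO cells, 4.39 and 4.05 FPKM in BATF-KO+RA cells, 4.45 and 4.27 FPKM in BATF-KO cells, 4.07 and 3.68 FPKM in WT+RA cells, and 4.18 and 2.94 FPKM in WT cells. Bank1 replicates differed by at most 1.42-fold, in WT cells, and the gap to the nearest other library was 4.33-fold. Blnk (ENSMUSG00000061132, chr19:40928927-40994221) encodes the adaptor that couples SYK to phospholipase Cγ and BTK. It was at 8.84 and 12.26 FPKM in RARα-KO+RA cells, 8.51 and 11.38 FPKM in RARα-KO cells, 1.79 and 1.15 FPKM in BATF-KO+RA cells, 1.76 and 1.08 FPKM in BATF-KO cells, 1.56 and 0.91 FPKM in WT+RA cells, and 1.73 and 0.68 FPKM in WT cells, and its gap of 4.75-fold was the widest of the 9. Fcrla (ENSMUSG00000038421, chr1:170917594-170932216) encodes an Fc receptor-like protein that stays inside B cells and binds immunoglobulin there. It was at 35.55 and 34.28 FPKM in RARα-KO+RA cells, 37.43 and 32.68 FPKM in RARα-KO cells, 5.35 and 4.43 FPKM in BATF-KO+RA cells, 6.25 and 5.20 FPKM in BATF-KO cells, 7.67 and 2.26 FPKM in WT+RA cells, and 7.92 and 2.32 FPKM in WT cells. All 4 BATF-KO values lay between the 2 replicates of the matching WT group, so those groups overlapped, while the lowest RARα-KO library stood 4.13-fold above the highest other library. Among all genes tested, 5.92% were likewise higher in every RARα-KO library than in any of the other 8.

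**Figure D1:**
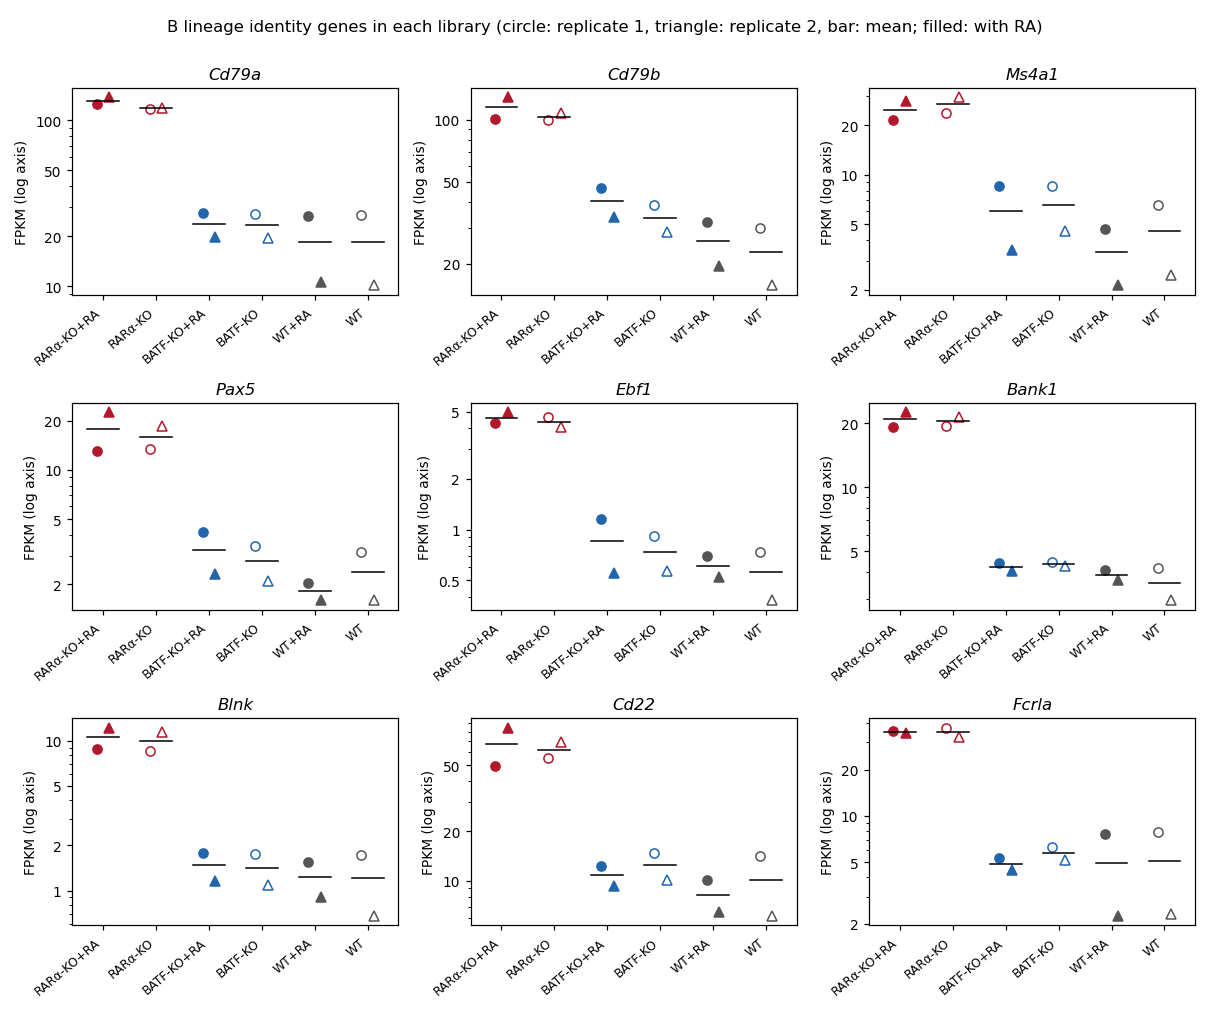
FPKM (log axis) of each B lineage identity gene in the 12 libraries, with RARα-KO, BATF-KO and WT groups from left to right, filled symbols for RA, circles for replicate 1, triangles for replicate 2 and a bar at the group mean. In all 9 panels the 4 RARα-KO libraries sit above the other 8, with the narrowest gap for Cd79b (2.12-fold) and the widest for Blnk (4.75-fold).

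RARα-KO cells were compared with WT cells first, without and with RA. A gene is said to rise where it was called higher in RARα-KO cells. Whether such a difference came from the loss of RARα itself was not tested. Without RA all 9 genes rose (limma on log2(FPKM + 1), adjusted p under 0.05 by Benjamini-Hochberg over all genes), where 2.78% of the 13396 genes tested were called higher. The ratio of mean FPKM was lowest for Cd79b, at 4.55, and highest for Blnk, at 8.25, with a median of 6.34 over the 9 genes. On the log2 scale the changes ranged from 1.78 to 2.75, with a median of 2.35 where the median over all genes was -0.0033. Bank1 had the smallest error, at 2.24 ± 0.16 (SE, limma adjusted p = 7.16e-05), and Ms4a1 the weakest call, at 2.43 ± 0.48 (limma adjusted p = 0.0224). With RA the 9 genes also rose in RARα-KO+RA cells against WT+RA cells, where 3.24% of all genes were called higher. Libraries of the same genotype and replicate number deviated together, so the comparisons without and with RA were not independent of each other. The ratio of mean FPKM with RA ranged from 4.48 for Cd79b to 9.73 for Pax5, with a median of 7.28. Pax5 rose by 2.69 ± 0.35 (limma adjusted p = 0.00237), Cd22 by 2.86 ± 0.38 (limma adjusted p = 0.00288) and Cd79b by 2.15 ± 0.32 (limma adjusted p = 0.00472) on the log2 scale.

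These calls rested on few libraries. Without RA, leaving out RARα-KO replicate 1, RARα-KO replicate 2 or WT replicate 2 left 6 of the 9 calls, and the filter on low values when dropped also left 6. The genes lost each time were Cd79a, Ms4a1 and Fcrla. When only the RARα-KO and WT libraries entered the fit, Bank1 alone passed. With RA, 5 calls were left without RARα-KO+RA replicate 2, 6 without WT+RA replicate 2 and 7 without RARα-KO+RA replicate 1. No setting turned the direction of any of the 9 genes in either comparison. Both comparisons showed full separation of the groups for all 9 genes, which 15% of all genes showed upward without RA and 20.1% with RA.

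The genes were also compared between the 2 knockouts. In RARα-KO cells 8 of 9 rose against BATF-KO cells (2.81% of all genes called higher), and the ratio of mean FPKM was 3.09 for Cd79b, 5.04 for Cd79a and 6.12 for Fcrla. With RA, 8 of 9 rose in RARα-KO+RA cells against BATF-KO+RA cells (3.08% of all genes called higher), with ratios from 2.85 for Cd79b to 7.18 for Blnk. Ms4a1 missed the threshold in both, at 1.93 ± 0.48 without RA (limma adjusted p = 0.0616) and 1.97 ± 0.48 with RA (limma adjusted p = 0.0529), although its groups did not overlap, as was so upward for 18.5% of all genes without RA and 18.7% with RA. Bank1 again had the smallest adjusted p, at 0.000168 without RA and 0.000120 with RA (limma). With the replicate number as a block Ms4a1 was called in both (limma adjusted p = 0.0161 without RA and 0.0135 with RA). The number of calls fell to 3 without RARα-KO replicate 2 or without BATF-KO replicate 2 and to 5 without replicate 1 of either, and the same counts came without the corresponding RA-treated libraries in the comparison with RA. Without WT replicate 1 or WT replicate 2, which enter through the shared estimate of the spread, Ms4a1 passed too and all 9 were called. Bank1, Ebf1 and Blnk held their calls in each of these fits. These comparisons share the RARα-KO libraries with those against WT cells.

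**Figure D2:**
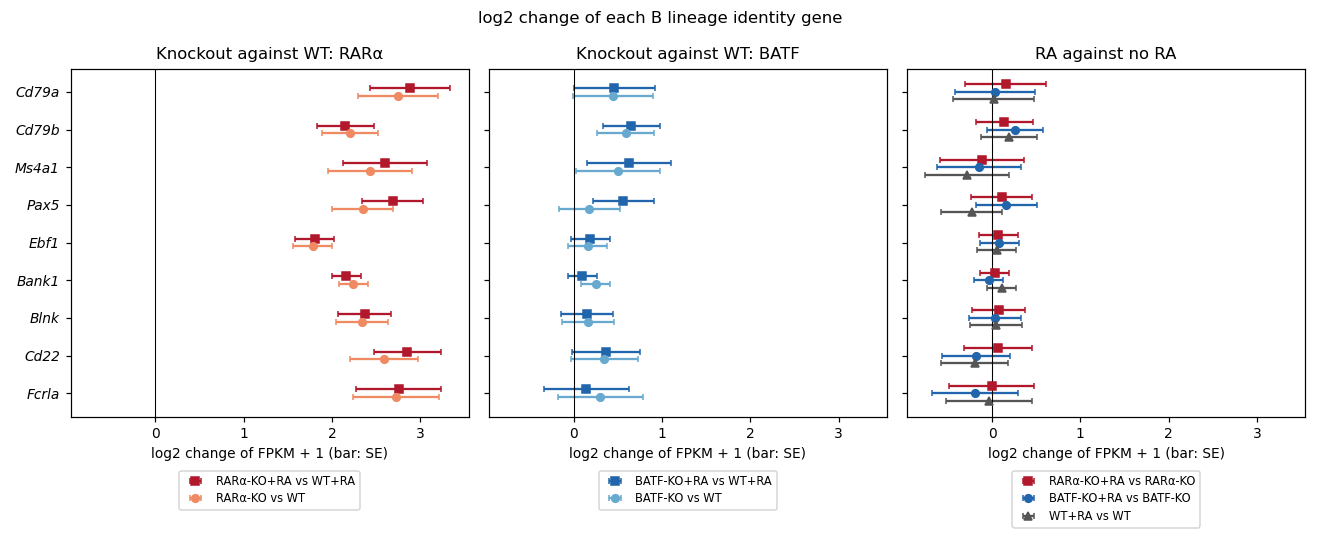
log2 change of each gene on the log2(FPKM + 1) scale (point) with its standard error (bar) in the 2 comparisons of RARα-KO with WT (left), the 2 of BATF-KO with WT (middle) and the 3 of RA with no RA (right). The RARα-KO changes lie between 1.78 and 2.89, those of BATF-KO between 0.10 and 0.65, and those of RA between -0.28 and 0.26.

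Loss of BATF was not accompanied by a called change in any of the 9 genes. In BATF-KO cells against WT cells 0 of 9 passed (limma, adjusted p = 1 for all), with 0 at an unadjusted p under 0.05, where 0.0373% of all genes were called higher and 0.0149% lower. All 9 estimates were above 0, from 0.16 for Ebf1 to 0.59 for Cd79b, with a median of 0.30. Their standard errors were 0.16 to 0.48. The ratio of BATF-KO to WT FPKM was 0.79 to 1.29 between the libraries numbered 1 and 1.31 to 2.24 between those numbered 2. In BATF-KO+RA cells against WT+RA cells 0 of 9 passed (limma, adjusted p = 1 for all), again with 0 at an unadjusted p under 0.05, where 0.0448% of all genes were called higher and 0.0224% lower. The estimates ran from 0.10 for Bank1 to 0.65 for Cd79b, with a median of 0.36. Cd79b came nearest to a call, at 40.39 ± 9.28 FPKM in BATF-KO+RA cells and 25.70 ± 8.76 FPKM in WT+RA cells (SD, n = 2 each), and its 2 groups did not overlap. Pax5 was the other case without overlap with RA, where 17.5% of all genes separated upward, and Bank1 the only case without RA, where 14.2% did. Fcrla had a positive estimate of 0.14 with RA but a ratio of mean FPKM of 0.985, since its WT+RA replicates stood far apart.

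No change of the 9 genes with RA was called, and Cd79a in RARα-KO cells was the only case in which the groups with and without RA did not overlap. In WT+RA cells against WT cells the changes ranged from -0.28 for Ms4a1 to 0.19 for Cd79b, with 0 of 9 called and 0 at an unadjusted p under 0.05 (limma, 0.0672% of all genes called higher and 0% lower). In BATF-KO+RA cells against BATF-KO cells they ranged from -0.19 to 0.26 with 0 of 9 called and 0 at an unadjusted p under 0.05 (limma, 0.142% of all genes called higher and 0.0149% lower). In RARα-KO+RA cells against RARα-KO cells they ranged from -0.11 to 0.16 with 0 of 9 called and 0 at an unadjusted p under 0.05 (limma, 0% of all genes called higher and 0.00746% lower). Both RARα-KO+RA values of Cd79a, at 124.96 and 137.20 FPKM, lay above both RARα-KO values, at 116.42 and 118.42 FPKM, as was so upward for 7.9% of all genes, with a change of 0.16 ± 0.46 (SE, limma adjusted p = 1). The RA effect in RARα-KO cells minus that in WT cells ranged from -0.08 to 0.34 over the 9 genes, and the RA effect in BATF-KO cells minus that in WT cells from -0.16 to 0.39. Neither difference was called for any of the 9 genes or for any other gene (limma, 0% called, 0 of the 9 at an unadjusted p under 0.05). With no filter on low values 16 genes were called for the difference in RARα-KO cells and 14 for that in BATF-KO cells, and with a pseudocount of 0.1 the count was 2 for BATF-KO cells, none of them one of the 9 genes.

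Within pairs of the same genotype and replicate number, with and without RA, 1 gene moved the same way throughout. Cd79b was higher with RA in 6 of 6 pairs, by 1.02- to 1.24-fold with a median of 1.19, which 7.88% of all genes were. In a fit with genotype and replicate as a pairing block the Cd79b change was 0.19 ± 0.09 in WT cells (limma adjusted p = 0.247), 0.26 ± 0.09 in BATF-KO cells (limma adjusted p = 0.322) and 0.14 ± 0.09 in RARα-KO cells (limma adjusted p = 1), so it was not called. None of the other 8 genes was called in that fit either. When the pairs were not kept together, the sign of the Cd79b change turned without WT+RA replicate 1 (-0.15) or WT replicate 2 (-0.25) in WT cells and without RARα-KO+RA replicate 2 (-0.032) in RARα-KO cells. Cd79a and Blnk were higher with RA in 5 of 6 pairs and Pax5 and Ebf1 in 3 of 6. Cd22 and Bank1 were higher in 2 of 6 pairs, and Ms4a1 and Fcrla in 1 of 6, with ratios between 0.71 and 1.00 for Ms4a1.

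Replicates stood apart in the cells with low levels. In WT cells replicate 1 exceeded replicate 2 for all 9 genes, by 1.42-fold for Bank1 to 3.41-fold for Fcrla with a median of 2.30. All 9 were higher in replicate 1 in the other groups with intact Rara as well, with a median ratio of 1.64 in WT+RA cells, 1.45 in BATF-KO cells and 1.39 in BATF-KO+RA cells. A gene higher in replicate 1 in all 4 of those groups was not rare, since 17.2% of all genes were. In RARα-KO cells the order was mixed, with 2 of 9 higher in replicate 1 without RA (ratios of 0.72 to 1.15) and 1 of 9 with RA (ratios of 0.58 to 1.04). The size of the RARα-KO difference therefore depended on which libraries were set side by side. Against WT cells the ratio was 3.34 to 6.24 between the libraries numbered 1 and 6.84 to 16.74 between those numbered 2. With RA it was 3.18 to 6.36 and 6.12 to 15.17. The 7 erythroid and platelet markers were also high in replicate 1 of every group, at 143.37 to 507.03 FPKM summed, against 11.43 to 29.04 FPKM in replicate 2, and their part in the replicate spread was not tested.

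**Figure D3:**
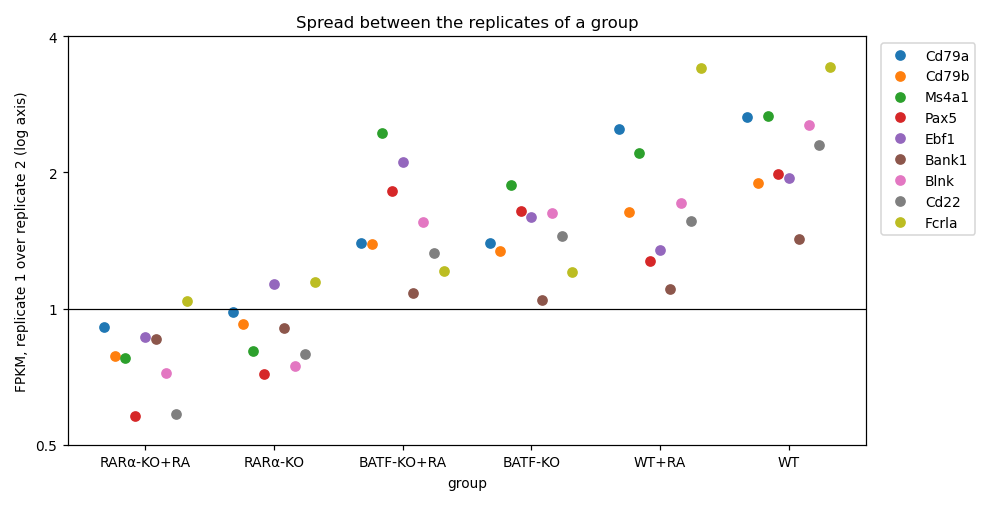
Ratio of FPKM in replicate 1 to replicate 2 (log axis) for each B lineage identity gene in the 6 groups, 1 point per gene and a line at 1. All points of the BATF-KO and WT groups lie above 1, up to 3.41 for Fcrla in WT cells, and those of the RARα-KO groups lie on both sides, from 0.58 to 1.15.

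The make-up of the set differed between genotypes as well as its level. Cd79b took 26.1% to 27.1% of the summed FPKM of the 9 genes in the RARα-KO libraries, against 31.3% to 42.8% in the other 8, with no overlap. Blnk took 2.25% to 2.75% in the RARα-KO libraries, against 1.42% to 1.91%, also with no overlap. The ratio of Cd79b to Cd79a, which form 1 complex in B cells, was 0.81 to 0.94 in RARα-KO libraries, against 1.11 to 1.84 in the others. The shares of the other 7 genes overlapped, for example 28.7% to 33.0% against 22.2% to 29.7% for Cd79a and 4.74% to 5.19% against 3.91% to 7.72% for Bank1. These shares are a description with no test. FPKM is scaled by transcript length, so levels of different genes are compared here per length.

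**Figure D4:**
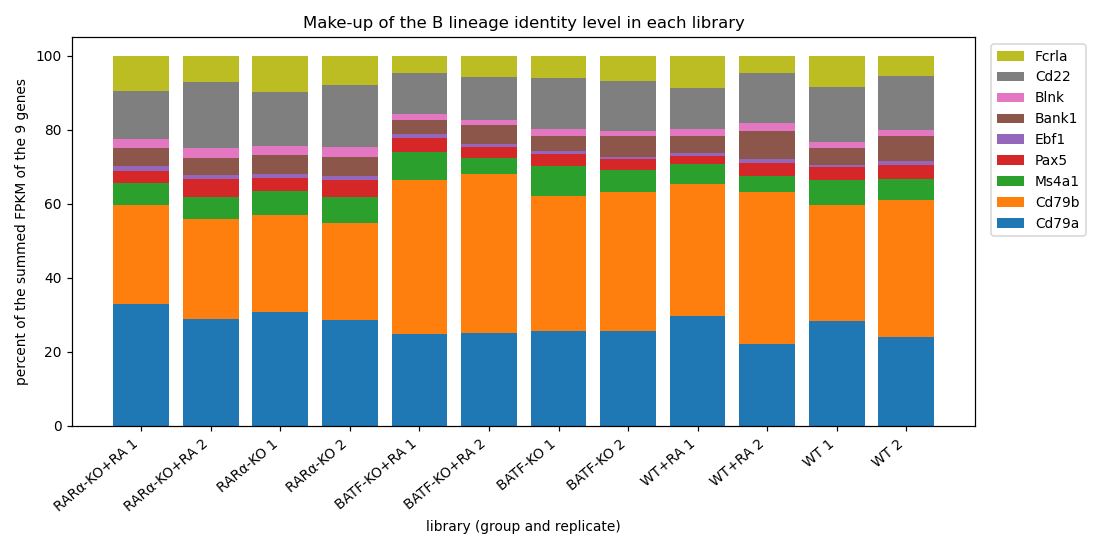
Percent of the summed FPKM of the 9 genes taken by each gene in the 12 libraries, stacked from Cd79a at the base to Fcrla at the top. The Cd79b band is narrower in the 4 RARα-KO libraries at the left (26.1% to 27.1%) than in the other 8 (31.3% to 42.8%).

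The genes with the most similar course over the 12 libraries were sought by the root mean square difference between centred log2(FPKM + 1) profiles, among 9165 genes with a mean of at least 5 FPKM in their highest group. The mean profile of the 9 genes was matched most closely by Syk (difference of 0.083), Lyn (0.085) and Btk (0.112), which encode kinases that act directly below the CD79 pair. Rnase6 (0.128), Icosl (0.140), Chst3 (0.142), Ly86 (0.152) and Kmo (0.165) came next. The median difference over all eligible genes was 1.12. Syk averaged 16.38 FPKM over the RARα-KO libraries, against 2.60 FPKM over the other 8, and Lyn 15.01 FPKM, against 2.62 FPKM. Within the set, Blnk lay nearest to the mean profile of its 8 partners (0.127) and Ebf1 farthest (0.357). The likeness is a description over 12 libraries, with no test.

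Other genes of B cell receptor signalling moved with the set in RARα-KO cells. Of 19 such genes 14 rose against WT cells without RA and 15 with RA, with median log2 changes of 1.98 and 2.04, and 0 of 19 were called in either BATF-KO comparison with WT cells (limma). Cd72, an inhibitory coreceptor, rose by 1.92 ± 0.24 without RA (limma adjusted p = 0.00248), and Swap70, a signalling protein of activated B cells, by 1.91 ± 0.21 (limma adjusted p = 0.00111). Genes that T cells also use differed among themselves. Prkcb, a protein kinase C of both lineages, had 48.37 to 49.64 FPKM in RARα-KO cells, against 38.94 to 54.74 FPKM in the others. Lax1, an adaptor of T and B cells, had 51.82 to 69.17 FPKM in RARα-KO cells, against 30.09 to 45.18 FPKM in the others, and missed the threshold without RA (0.78 ± 0.18, limma adjusted p = 0.0517) but rose with RA (0.93 ± 0.18, limma adjusted p = 0.0187).

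Most surface receptors and immunoglobulin constant genes were called higher in RARα-KO cells, with exceptions in both lists. Of 12 surface receptors 10 rose without RA and 11 with RA, with a median change of 2.05 and 1.98, and the list shares 2 genes with the one above. Fcmr, the receptor for IgM, had 57.74 to 79.23 FPKM in the RARα-KO libraries, against 5.60 to 14.93 FPKM in the rest (2.74 ± 0.38, limma adjusted p = 0.00366 without RA). Ly6d, an early marker of B lineage specification, had 80.48 to 85.60 FPKM, against 7.04 to 24.30 FPKM (2.63 ± 0.51, limma adjusted p = 0.0207, and 0.0940, 0.0991 and 0.121 when RARα-KO replicate 1, RARα-KO replicate 2 and WT replicate 2 were left out in turn). Cd37, a tetraspanin of lymphocytes in general, was at 179.29 to 210.87 FPKM in RARα-KO libraries, against 132.93 to 196.58 FPKM in the rest. Of 11 immunoglobulin constant genes that passed the filter 7 rose without RA and 7 with RA, and 4 were not called in either comparison. Igkc, the κ light chain, had 519.02 to 705.58 FPKM in the RARα-KO libraries, against 37.14 to 100.64 FPKM (3.19 ± 0.48, limma adjusted p = 0.00537 without RA). Ighd, the IgD heavy chain of mature naive B cells, had 77.16 to 96.17 FPKM, against 9.28 to 20.45 FPKM (2.50 ± 0.34, limma adjusted p = 0.00348). Ighm, the IgM heavy chain, stood closer, with 428.96 to 515.56 FPKM, against 211.04 to 353.69 FPKM (0.73 ± 0.23, limma adjusted p = 0.182), so it was not called. When only the RARα-KO and WT libraries entered the fit, the calls without RA of Swap70 (limma adjusted p = 0.0642), Cd72 (0.0663), Ighd (0.0993), Igkc (0.1), Fcmr (0.117) and Ly6d (0.187) were all lost. The Iglc and Ighg genes share near-identical sequence, and how reads were divided among them is uncertain.

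Transcription factors of the lineage were less uniform. Of 14 factors outside the 9 genes 4 rose without RA and 5 with RA. Mef2c, a factor of B cell proliferation, had 23.44 to 32.18 FPKM in the RARα-KO libraries, against 2.44 to 6.73 FPKM in the rest, and Bcl11a, which is needed early in the lineage, had 5.43 to 7.36 FPKM, against 0.76 to 1.65 FPKM. Factors that T cells also use differed among themselves, and none of the 14 was called lower in RARα-KO cells against WT cells. Bach2 had 31.96 to 33.81 FPKM in RARα-KO cells, against 22.00 to 30.18 FPKM in the rest, without overlap, though it was not called against WT cells without RA (limma adjusted p = 0.930) or with RA (0.0838). Tcf3 overlapped at 58.79 to 73.91 FPKM in RARα-KO cells, against 59.14 to 70.89 FPKM in the rest, and so did Id3 at 31.02 to 38.87 FPKM, against 31.48 to 47.98 FPKM. Of 9 MHC class II genes, which B cells and other antigen-presenting cells express, 7 rose without RA and 7 with RA. Cd74, the invariant chain of MHC class II, had 636.54 to 859.56 FPKM in the RARα-KO libraries, against 61.23 to 185.29 FPKM in the others.

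Genes of particular B cell stages differed from list to list. Of 8 precursor genes 5 failed the filter, with Vpreb2 at most at 0.05 FPKM, Rag1 at 0.30 FPKM, Rag2 at 0.19 FPKM and Igll1 at 0.38 FPKM in any library, and 0 of the remaining 3 were called (limma). Of these Dntt, the polymerase that adds bases at immunoglobulin and T cell receptor junctions, was at 3.92 and 3.69 FPKM in RARα-KO replicate 1 with and without RA, against at most 0.91 FPKM in the other 10 libraries. Of 6 genes tested from the germinal centre list 1 rose in RARα-KO cells against WT cells, without and with RA, and it was Cd38, which in mice is low on germinal centre B cells and higher on naive and memory B cells. Of 9 marginal zone and B-1 cell genes tested 3 rose without RA and 4 with RA, with median log2 changes of 0.88 and 0.80. Cd9, a tetraspanin, overlapped at 34.00 to 58.41 FPKM in RARα-KO cells, against 49.27 to 63.89 FPKM in the rest. Of 6 plasma cell genes tested 3 rose without RA and 4 with RA, and Mzb1 stands on both of these lists. Jchain, which joins secreted IgM and IgA, had 12.03 to 15.17 FPKM in RARα-KO cells, against 0.10 to 1.13 FPKM in the rest, and Mzb1, a chaperone of antibody secretion, had 26.13 to 31.02 FPKM, against 2.01 to 8.22 FPKM. Xbp1, a factor of secretory cells in general, overlapped at 41.13 to 47.63 FPKM, against 37.01 to 57.80 FPKM, and Tnfrsf17, a receptor of plasma cells, did not exceed 0.21 FPKM.

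Markers of other cell types were measured beside the B lineage set. The 11 NK cell markers summed to 178.63 to 205.23 FPKM in the RARα-KO libraries, against 45.58 to 118.68 FPKM in the others, and 5 of 11 rose in RARα-KO cells without RA and 6 with RA. Ncr1, which encodes the NK receptor NKp46, was at 4.46 to 6.50 FPKM, against 0.13 to 0.78 FPKM. The 11 myeloid markers overlapped at 307.16 to 461.78 FPKM, against 182.19 to 368.19 FPKM, with 3 of 10 tested rising without RA and 5 with RA. The 12 CD8 T cell markers summed to 3349.8 to 4206.6 FPKM in RARα-KO cells, against 4206.5 to 5350.4 FPKM in the other 8 libraries, and all 12 had estimates under 0 without RA, of which only Trbc1 was called (limma). No NK or CD8 T cell marker was at 0 in any library. The part of these cell types in the level of the 9 genes was not tested.

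**Figure D5:**
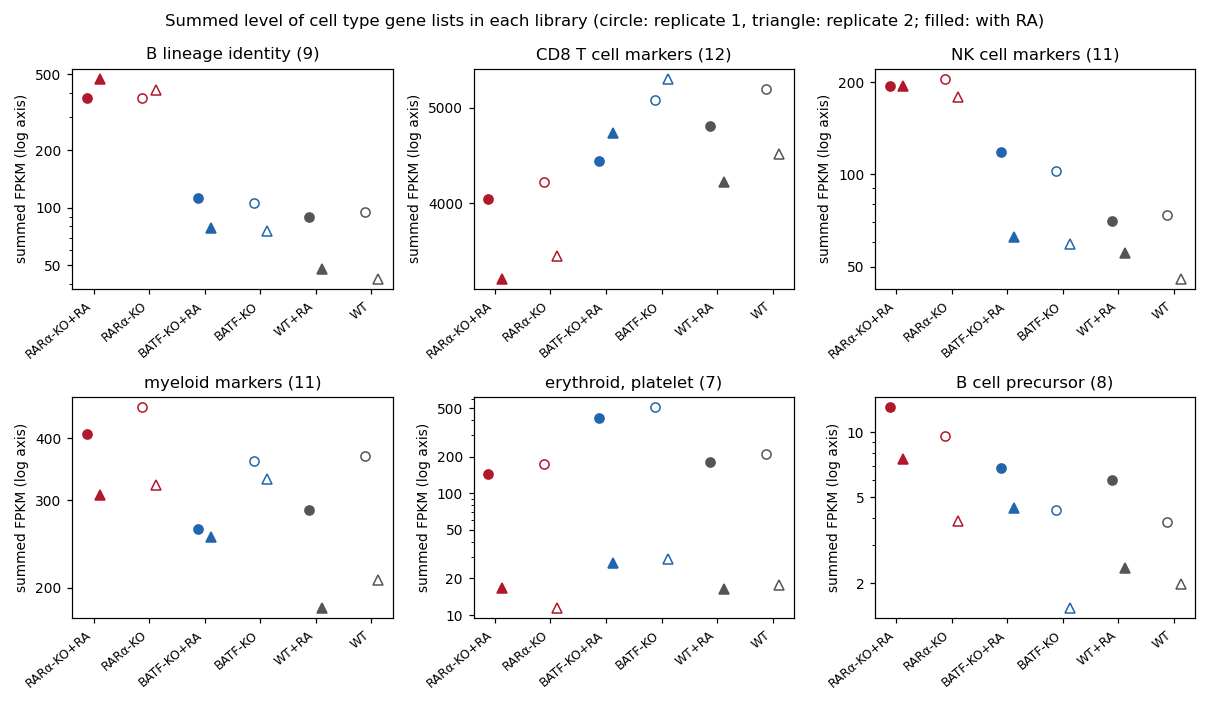
Summed FPKM (log axis) of the 9 B lineage identity genes and of markers of CD8 T, NK, myeloid, erythroid and platelet, and precursor B cells in each library, with groups ordered RARα-KO, BATF-KO and WT from left to right, filled symbols for RA, circles for replicate 1 and triangles for replicate 2. B lineage and NK sums are highest in the 4 RARα-KO libraries (378.19 to 475.17 and 178.63 to 205.23 FPKM), and erythroid sums separate replicate 1 from replicate 2 in every group.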

How the data were processed

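The authors aligned paired-end reads of 150 bp to GRCm38 (ENSEMBL) with STAR 2.7.8a, estimated gene levels with RSEM 1.3.3 and deposited FPKM to 2 decimals, with no scaling between libraries. Absolute depth is therefore unknown, and no interval for counting error is given. The labels name both a total RNA kit and poly-A enrichment, and RA treatment was read from the sample titles.

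The 55487 mouse genes were filtered to 13396 with 1 FPKM or more in 2 or more libraries. Values were transformed as log2(FPKM + 1), which understates changes of low genes, and fitted as 6 group means over 12 libraries with limma 3.58.1 (R 4.3.3, mean-variance trend, 6 residual and 3.39 prior degrees of freedom). Two-sided p-values were adjusted by Benjamini-Hochberg over all genes within a comparison and called under 0.05. The fit was tested on simulated data in which libraries varied independently, so that test does not cover libraries that deviate together. Positions came from a RefSeq annotation of GRCm38. Summaries used Python 3.11.15 (pandas 2.3.3, numpy 2.4.6, matplotlib 3.10.9).

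Named genes are the 9 B lineage identity genes, up to 5 tested genes per list with the highest mean FPKM, 8 by likeness of profile, and Batf, Rara and Cre. Syk, Lyn and Btk belong to the likeness genes. Mef2c, Bcl11a, Bach2, Cd8a, Rag1, Rag2, Vpreb2, Igll1 and Tnfrsf17 stand outside this rule and were chosen after their values were seen. Some genes that the rule names are not reported here. The genes and lists were chosen with earlier results of these data known.

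Libraries of the same genotype and replicate number, with and without RA, deviated from their group means together. Their correlation across genes was 0.398 to 0.578 in the 3 genotypes. The RA comparisons were therefore repeated with genotype and replicate as a block. In the main fit the comparisons between genotypes treated these libraries as independent, which their p-values do not allow for. Other alternatives were TPM, other pseudocounts and filters, median ratio scaling, array weights, a replicate number block, fits of the compared groups alone, and leaving out each library. Scaling to CD8 T cell markers was added after seeing the data.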

Additional observations from a re-analysis of the deposited data

How the results depend on the processing

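The 9 genes kept their direction in all 4 comparisons of RARα-KO cells with WT or BATF-KO cells under every alternative, while the number of calls moved. RARα-KO against WT cells gave 9 calls, 1 with only the compared groups and 6 to 9 when single libraries were left out. RARα-KO+RA against WT+RA cells gave 9 calls and 5 to 9 when single libraries were left out. RARα-KO against BATF-KO cells gave 8 calls, 4 with no filter and 3 to 9 with a library left out, and with RA 8, 5 with no filter and 3 to 9 with a library left out. A lone library left in a group was assumed to vary like the other groups. Array weights ended the call of Ms4a1 in RARα-KO against WT cells, and an FPKM of 1 or more in all 12 libraries removed Ebf1 and Blnk from the test. Scaling to CD8 T cell markers raised the median of all genes by 0.28 (log2) in RARα-KO against WT cells and by 0.36 against BATF-KO cells, and no call of the 9 genes was lost with it.

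With single libraries left out, changes that had not been called crossed 0. In RARα-KO against WT cells Prkcb ranged from -0.0089 to 0.088 and Cd37 from -0.028 to 0.49. The change of Cd79b with RA ranged from -0.25 to 0.63 in WT cells (-0.25 without WT replicate 2 and -0.15 without WT+RA replicate 1) and from -0.032 to 0.31 in RARα-KO cells.

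Calls over all genes moved by more than 1.5 times under some settings. In RARα-KO against WT cells 441 became 180 with 1 FPKM or more in all libraries and 80 with only the compared groups, and with RA 504 became 203 and 320. Against BATF-KO cells 502 became 225 and 256, and with RA 557 became 244 and 306. With the replicate number as a block the 502 became 916 and the 557 became 1000, and Ms4a1 was called as well. Same-numbered libraries of different genotypes correlated at 0.0795 to 0.452, above 0.1 in 10 of 12 pairs of groups, and no label ties the numbers across genotypes, so whether they mark a shared batch was not settled. With genotype and replicate as a pairing block the calls of RA against no RA became 70 in WT cells (9 without the block), 119 in BATF-KO cells (21 without) and 11 in RARα-KO cells (1 without), and none of them was one of the 9 genes.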

Other observations

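Genes of other B cell lists were followed across the RA pairs as well. Of 84 such genes tested, 16 (19.0%) were higher with RA in all 6 pairs of the same genotype and replicate number, where 7.88% of all genes were. Some genes on these lists are also used by T cells, and of the B lineage identity genes only Cd79b was higher in all 6 pairs. The lists were chosen with earlier results known, and the same RA libraries enter every gene, so the share is a description with no test.

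H2-DMa, a chaperone subunit that loads peptide onto MHC class II, had the clearest change. It was at 199.60 and 195.84 FPKM in RARα-KO+RA cells, against 129.29 and 100.32 FPKM in RARα-KO cells. In BATF-KO+RA cells it was at 226.22 and 200.27 FPKM, against 69.23 and 71.57 FPKM in BATF-KO cells. In WT+RA cells it was at 168.80 and 169.70 FPKM, against 84.54 and 67.99 FPKM in WT cells. H2-DMa was higher with RA in all 6 pairs of the same genotype and replicate number, by 1.54- to 3.27-fold, as 7.88% of all genes were. It was called in BATF-KO cells (limma adjusted p = 0.00351, 0.000391 to 0.0823 over the alternatives) and in WT cells (limma adjusted p = 0.0384, 0.00885 to 0.592 over the alternatives), and not in RARα-KO cells (limma adjusted p = 0.599). The call in BATF-KO cells was lost without BATF-KO+RA replicate 1 (0.0823), BATF-KO replicate 1 (0.0622) or BATF-KO replicate 2 (0.0567), and the call in WT cells was kept only without RARα-KO replicate 1 or 2 among the 12 fits that left out a library. The RA effect was not called different between genotypes.

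Vpreb3, which encodes a chaperone-like protein of B cell precursors and mature B cells, was 1.83- to 10.1-fold higher with RA over the 6 pairs. These ratios rest on low values, since the precursor genes, Vpreb3 among them, together summed to at most 13.02 FPKM in any library. In the BATF-KO and WT libraries that sum was 1.54 to 6.85 FPKM. Vpreb3 was called in BATF-KO cells only with genotype and replicate as a pairing block (limma adjusted p = 0.0182, against 0.488 without the block). Irf8, a factor of B and myeloid cells, was 1.18- to 2.37-fold higher and Plac8 1.20- to 2.02-fold. The paper also counts Irf8 among the transcription factors of effector CD8 T cells. Irf8 and Plac8 were called in BATF-KO and WT cells only with that block (limma adjusted p of 0.0198 for Irf8 and 0.0279 for Plac8 in BATF-KO cells, and 0.0371 for both in WT cells, with none under 0.560 without the block). H2-DMa, Vpreb3, Irf8 and Plac8 are named here after their values were seen.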
